A study of Homo sapiens with 8 samples.

Results

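Expression of 10 enzymes that clear reactive sugars and their breakdown products was examined in MDA-MB-231 cells exposed to carboxymethyllysine (CML), an advanced glycation end product that forms on lysine. MDA-MB-231 is an established cell line of estrogen receptor-negative breast cancer. The genes were taken by symbol from a table of 17649 genes, and all 10 were found: GLO1, HAGH and PARK7 of dicarbonyl detoxification, FN3K and FN3KRP of deglycation, AKR1B1 and SORD of the polyol pathway, and AKR1A1, ALDH2 and ALDH9A1, which act on aldehydes. RNA-Seq had been performed on 4 control cultures that received PBS and 4 cultures that received 1 μM CML (titled NCML), all kept for 48 hours in medium with 5 mM glucose. Within each group the libraries are numbered 1 to 4, and nothing in the labels says whether they came from separate thaws or days, so the p-values measure the spread between these cultures of a single cell line.

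Glucose and its breakdown products react with proteins in steps, first to reversible adducts and then to stable end products such as CML. Methylglyoxal, a reactive dicarbonyl that arises from the triose phosphates of glycolysis, is removed by the glyoxalase system. In it, GLO1 converts the adduct that methylglyoxal forms with glutathione, and HAGH releases D-lactate and returns the glutathione. Fructosamine kinases phosphorylate early sugar adducts so that they fall off the protein, and the polyol pathway turns excess glucose into sorbitol (aldose reductase, AKR1B1) and then into fructose (sorbitol dehydrogenase, SORD), a route known for its part in diabetic tissue damage. These enzymes act on sugars, dicarbonyls and early adducts, upstream of end products such as CML.

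Values are CPM as deposited, read counts scaled by a factor for each library. The steps between values gave between 16161802 and 18954733 reads per library, and a single read came to 0.0535 to 0.0622 CPM. The groups were compared gene by gene on the log2(CPM + 1) scale with limma, and adjusted p-values are Benjamini-Hochberg values over all 17649 genes. A gene was called at an adjusted p under 0.3, the false discovery rate (FDR) that the study used for this experiment. The cell line markers VIM, CD44, EGFR, KRT8, KRT18, MSN, CAV1 and AXL summed to between 8860 and 9540 CPM in every library, with VIM at a mean of 4109 CPM. Of the luminal markers, PGR stayed at or below 0.114 CPM, FOXA1 at or below 0.0622 CPM and CDH1 at or below 0.954 CPM, while EPCAM reached 16.3 CPM and GATA3 5.61 CPM. ESR1, KRT5 and KRT14 were not analysed here. Of 15 markers of leukocytes, endothelium, fibroblasts, red cells, liver and fat, 10 were analysed, and their sum lay between 170.2 and 202.2 CPM, of which CD68, a lysosomal protein of macrophages, made up a mean of 168.9 CPM. Among the markers of fibroblasts, COL1A1 ranged from 9.40 to 13.3 CPM and PDGFRB from 3.07 to 4.875 CPM. The collagen gene COL3A1 ranged from 0 to 3.35 CPM and DCN from 0 to 0.0605 CPM. Of the endothelial markers, PECAM1 ranged from 2.365 to 3.84 CPM and VWF from 0.118 to 0.747 CPM, and CD14 ranged from 0.684 to 1.73 CPM. The means of COL3A1 were 0.0151 CPM in control and 0.880 CPM in CML-exposed cells (adjusted p from limma = 0.897). The CML mean rested mostly on a single library, the one at 3.35 CPM. PTPRC, the pan-leukocyte marker, did not exceed 0.650 CPM, and the lowest adjusted p of any marker in limma was 0.458 (CAV1). In these bulk libraries a change in the number of cells of a kind and a change in RNA per cell cannot be told apart.

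The libraries of replicate 4 stood apart from the others. On the first principal component, which held 27.0% of the variance, control replicate 4 scored 109 and CML replicate 4 scored 87.0, control replicate 1 lay at the other end with −101, and the other 5 libraries scored between −33.8 and −7.07. The loadings of this component fell with the GC content of the transcript (Spearman's rho = −0.700 across genes averaging 1 CPM or more, which are not independent replicates). The transcripts of the 10 enzymes ranged in GC content from 39.4% for GLO1 to 65.5% for FN3K, and results that rest on replicate 4 are given with and without them.

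Per length of transcript, PARK7, GLO1, AKR1A1, AKR1B1 and ALDH9A1 were expressed well above the other 5 genes. PARK7 had the highest level over the 8 libraries, with a mean of 115.5 CPM per kb (range 110.6 to 119.3). PARK7 encodes DJ-1, a sensor of oxidative stress for which a deglycase activity has been reported and debated. GLO1 followed with 73.7 CPM per kb (range 67.9 to 76.7), AKR1A1 with 64.8 (61.4 to 66.5), AKR1B1 with 59.3 (56.5 to 61.3) and ALDH9A1 with 48.1 (46.4 to 50.2). A gap separated these 5 genes from the rest. HAGH, the second glyoxalase, had 11.99 CPM per kb (10.5 to 13.5), FN3KRP 8.61 (7.62 to 9.59), SORD 6.31 (5.793 to 7.001) and ALDH2, the mitochondrial aldehyde dehydrogenase, 5.44 (5.07 to 5.74). FN3K was lowest, at 2.81 CPM per kb (2.14 to 3.37). Neighbors in this order had ranges over the 8 libraries that did not meet.

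The order depends in part on the length that is used, because the reference transcripts of ALDH2 (9.561 kb) and SORD (4.818 kb) are mostly untranslated sequence. Per kb of coding sequence, GLO1 (269 CPM per kb) came before PARK7 (230 CPM per kb), and ALDH2 (33.5 CPM per kb) and SORD (28.4 CPM per kb) came before FN3KRP (16.9 CPM per kb). FN3K stayed last with 4.21 CPM per coding kb. In the glyoxalase and polyol pathways the first enzyme was the more abundant per kb of transcript. GLO1 stood at 6.01 ± 0.936 times HAGH in control and 6.40 ± 0.643 times in CML-exposed cells (SD, n = 4 each), with overlapping ranges, and AKR1B1 at 9.97 ± 0.516 times SORD in control cells. The gap between AKR1B1 and SORD depends strongly on the length used, since per kb of coding sequence their means over the 8 libraries were 85.1 and 28.4 CPM.

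**Figure D1:**
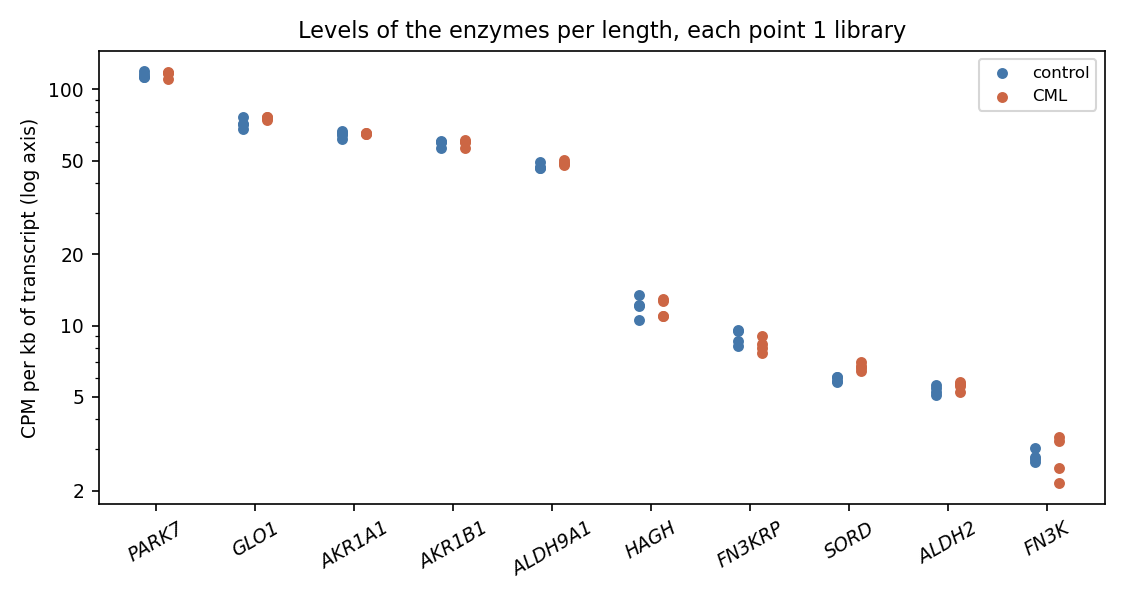
CPM per kb of the reference transcript (y axis, log scale) for the 10 enzyme genes (x axis, in falling order), each point 1 library, control in blue and CML in orange. Points of PARK7, at 110.6 to 119.3, lie at the top and those of FN3K, at 2.14 to 3.37, at the bottom, with a gap between ALDH9A1 and HAGH.

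SORD was higher in CML-exposed cells, and it was the only enzyme of the 10 that passed the threshold. SORD is encoded on chromosome 15 (GRCh38, 45023195 to 45077185, plus strand) and catalyzes the second step of the polyol pathway, the oxidation of sorbitol to fructose. Its level was 27.9, 29.3, 29.2 and 27.9 CPM in control replicates 1 to 4 and 31.0, 32.6, 33.7 and 31.8 CPM in CML replicates 1 to 4. Every CML library lay above every control library, and CML replicate 3 was the highest. The means were 28.6 ± 0.765 CPM in control and 32.3 ± 1.16 CPM in CML-exposed cells (SD, n = 4 each), a rise of 12.9%. The log2 fold change was 0.17 (standard error 0.032, 95% interval 0.094 to 0.24), with an adjusted p from limma of 0.218. The spread of SORD within groups, 0.981 CPM, was 0.733 times the 1.34 CPM that counting of its reads would give, the lowest such ratio among the 10 enzymes, so the standard error and p rest on a spread smaller than counting error alone. The exact permutation test over the 70 labellings of the libraries gave p = 0.0286, the smallest that 4 against 4 allow. Any gene whose groups do not overlap reaches this value, and the 10 enzymes were chosen with earlier results of these data known.

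Among all genes, 158 of 17649 (0.895%) were called, 119 higher (0.674%) and 39 lower (0.221%) with CML. The split became 46 higher and 27 lower when the libraries were centred on their medians (0.414% called in all), and 90 higher and 54 lower with quantile normalization (0.816%). The groups did not overlap in 2.50% of genes with CML higher and in 1.27% with CML lower. At an adjusted p of 0.05 limma called 0 genes (0.00%), while 1352 genes (7.66%) had an unadjusted p under 0.05, SORD alone among the 10 enzymes.

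The call of SORD rests on most of the libraries, as does the number of genes called. With 1 control library left out, its adjusted p from limma was 0.386 without replicate 1 (0.516% of genes called), 0.346 without replicate 2 (0.255%) and 0.36 without replicate 3 (0.408%), all above the threshold, and 0.23 without replicate 4 (3.91%), under it. With 1 CML library left out, it was 0.291 without replicate 1 (0.431%), under the threshold, and 0.475 without replicate 2 (0.113%), 0.35 without replicate 3 (0.249%) and 0.349 without replicate 4 (0.595%), above it. Its log2 fold change stayed between 0.15 and 0.19. It was 0.17 with an adjusted p of 0.328 without both libraries of replicate 4 (1.82% of genes called). The call was also lost after centring of the libraries (adjusted p = 0.394) and when the fit was limited to genes averaging 1 CPM or more (0.402, with 1.08% called). It held with the dependence on GC content and length taken out of each library (adjusted p = 0.158, with 6.58% called, and 6.68% when replicate blocks were added), with replicate blocks alone (1.07% called), with a pseudocount of 0.1 (0.771%), without averaging by symbol (0.894%), without the variance trend (0.929%) and with quantile normalization.

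The reads of SORD cannot be assigned without doubt. The transcript of SORD2P, a pseudogene copy on the same chromosome, aligned to 2317 of its bases, of which 2295 (99.1%) were identical, and over the coding sequence of 1071 bases 1005 were aligned and 98.5% of these identical. Of the 4769 words of 50 bases in the SORD transcript, 33.7% also occurred in a SORD2P transcript, and 35.4% occurred in some transcript outside SORD. The coding stretch of 90 bases in which the copies differ most is shown for both, bases 283 to 372 of the SORD coding sequence and bases 399 to 488 of the SORD2P transcript, with the 4 differing bases in capitals (GENCODE release 44 transcripts on GRCh37, 5′ to 3′ in the direction of transcription).
SORD: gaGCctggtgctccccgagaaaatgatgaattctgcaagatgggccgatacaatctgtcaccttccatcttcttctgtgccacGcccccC
SORD2P: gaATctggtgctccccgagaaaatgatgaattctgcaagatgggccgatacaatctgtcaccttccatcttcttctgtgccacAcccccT

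The estimated reads of SORD, between 468 and 608 per library, were whole in 0 of 8 libraries, and the same was true of SORD2P, whereas the other 9 enzymes had whole reads in all 8. SORD2P had 2.79, 1.98, 1.97 and 2.41 CPM in control and 2.20, 2.60, 1.92 and 2.53 CPM in CML replicates 1 to 4, with overlapping groups and a log2 fold change of 0.014 (95% interval −0.24 to 0.26). It made up between 5.39% and 9.07% of the sum of both genes. That sum was 30.9 ± 0.436 CPM in control and 34.6 ± 1.06 CPM in CML-exposed cells (SD, n = 4 each), and its highest control library, 31.3 CPM, lay below its lowest CML library, 33.2 CPM. The difference between the group means was 12.05% of the control mean in the sum, against 12.9% in the value assigned to SORD alone.

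**Figure D2:**
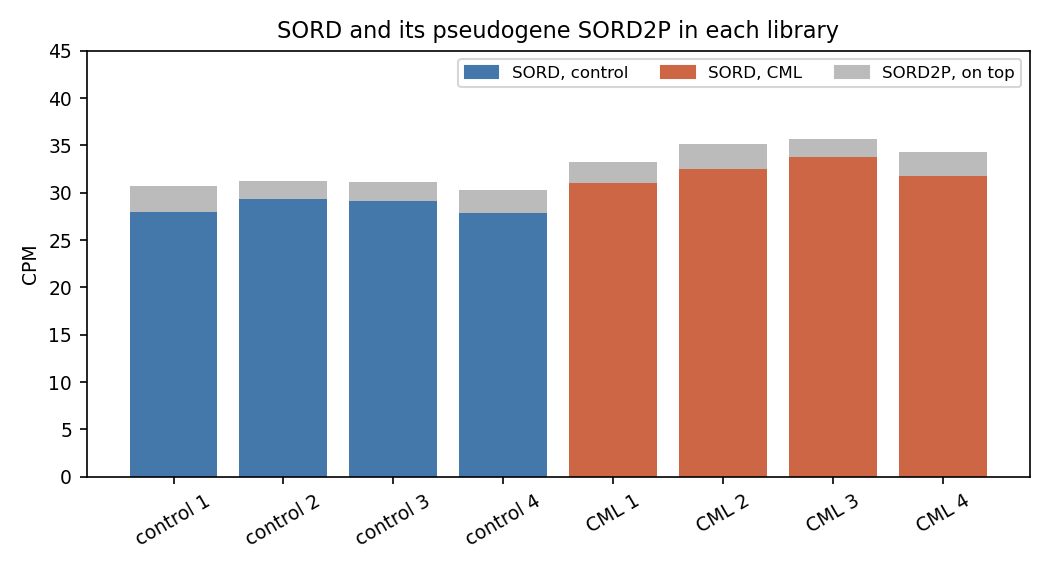
CPM (y axis, from 0) in each of the 8 libraries (x axis) for SORD (blue for control, orange for CML) with SORD2P stacked on top in grey. All 4 CML bars, 33.2 CPM or more in sum, stand above the 4 control bars, which reach at most 31.3 CPM.

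AKR1B1, which makes the sorbitol that SORD oxidizes, did not pass the threshold. Aldose reductase (chromosome 7, 134442350 to 134459239, minus strand) had 82.0, 76.9, 81.2 and 81.6 CPM in control and 77.1, 83.4, 81.9 and 81.6 CPM in CML replicates 1 to 4. The groups overlapped almost fully, with means of 80.4 ± 2.36 and 81.0 ± 2.75 CPM (SD, n = 4 each). The log2 fold change was 0.010, and its 95% interval from limma, −0.063 to 0.084, left room for a fall of 4.30% or a rise of 5.97% in CPM + 1. The ratio of AKR1B1 to SORD per kb of transcript accordingly lay between 9.29 and 10.4 in control and between 8.60 and 9.10 in CML libraries, a description that repeats the difference in SORD.

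The glyoxalases did not pass the threshold over all 8 libraries. GLO1 (chromosome 6, 38675925 to 38703145, minus strand) had 136.8, 143.6, 143.9 and 154.6 CPM in control and 154.1, 151.9, 149.98 and 153.5 CPM in CML replicates 1 to 4. The 4 CML libraries lay close together and above control replicates 1 to 3, but control replicate 4 was the highest of all 8. The means were 144.7 ± 7.34 and 152.4 ± 1.83 CPM (SD, n = 4 each), the log2 fold change was 0.075 (95% interval −0.0079 to 0.16) and the adjusted p from limma was 0.70 (exact permutation p = 0.143). Without control replicate 4 the log2 fold change was 0.11 with an adjusted p of 0.213, under the threshold, in a fit that called 690 genes (3.91%) in all. With control replicate 1, the lowest library, left out instead, it was 0.049 (adjusted p from limma = 0.824). Without both libraries of replicate 4 it was 0.10 with an adjusted p of 0.33, and after removal of the dependence on GC content and length it was 0.058 with an adjusted p of 0.412.

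HAGH (chromosome 16, 1807629 to 1827194, minus strand) varied more than GLO1 on the log2 scale. It had 35.4, 31.98, 31.8 and 27.6 CPM in control and 28.7, 33.8, 33.3 and 28.7 CPM in CML replicates 1 to 4, so that all CML libraries were within the range of the control libraries. The log2 fold change was −0.023 (95% interval −0.23 to 0.19, adjusted p from limma = 1.00). Its sign turned with 1 library left out, to 0.030 without control replicate 1 and to 0.013 without CML replicate 1 or CML replicate 4. The spread within groups, 3.00 CPM, was 2.21 times the 1.36 CPM that counting of its 461 to 632 reads would give, the largest such ratio among the 10 enzymes, and GLO1 followed with 1.81. FAHD1 overlaps HAGH on the opposite strand, and whether the counting used strand is not given in the sources used here. FAHD1 had 15.6 ± 1.72 CPM in control and 15.5 ± 1.35 CPM in CML-exposed cells (SD, n = 4 each). PARK7 (chromosome 1, 7961711 to 7985505, plus strand) ranged from 126.6 to 134.4 CPM in control and from 124.7 to 133.4 CPM in CML-exposed cells. Its log2 fold change of 0.011 had the interval −0.058 to 0.080.

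**Figure D3:**
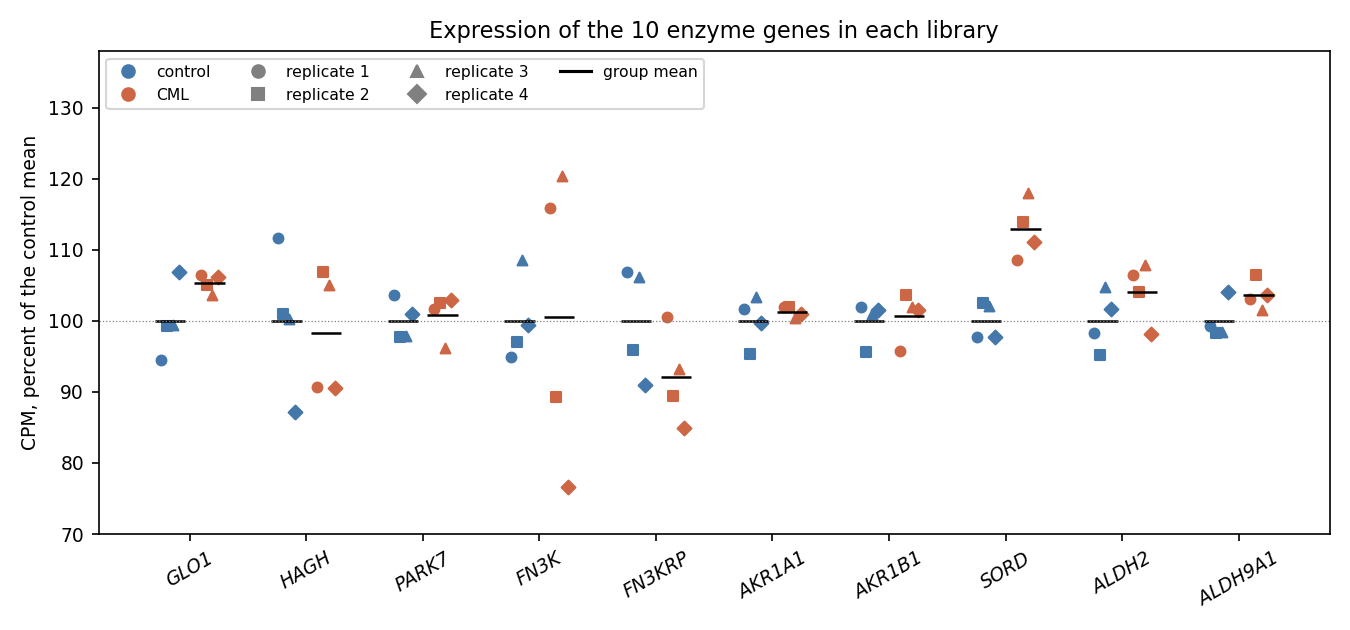
CPM in percent of the control mean (y axis) for the 10 genes (x axis), each point 1 library, control in blue and CML in orange, marker shape giving the replicate number and black lines the group means. The SORD groups are apart, while in GLO1 control replicate 4 sits with the CML libraries and in FN3K the CML libraries spread the widest.

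The deglycation enzymes, which lie next to each other on chromosome 17, did not pass the threshold either. FN3K, the fructosamine kinase (82735615 to 82751196, plus strand), had 3.70, 3.78, 4.23 and 3.88 CPM in control and 4.52, 3.48, 4.69 and 2.99 CPM in CML replicates 1 to 4. The CML libraries spread on both sides of the control libraries, with an SD of 0.820 CPM against 0.236 CPM in control. With only 48 to 78 reads per library, counting alone gives an SD of 0.480 CPM. The log2 fold change was −0.0081, with an interval from −0.30 to 0.28 on the log2(CPM + 1) scale, which in CPM + 1 runs from a fall of 18.8% to a rise of 21.8%. The spread within groups, 0.603 CPM, was 1.26 times that of counting.
FN3KRP (82716706 to 82728013, plus strand), the related kinase that acts on ribulosamines and psicosamines, had 17.5, 15.7, 17.4 and 14.9 CPM in control and 16.4, 14.6, 15.2 and 13.9 CPM in CML replicates 1 to 4. The groups overlapped, and replicate 4 was the lowest library of each. The means of 16.3 ± 1.28 and 15.0 ± 1.09 CPM (SD, n = 4 each) gave a log2 fold change of −0.11 (95% interval −0.28 to 0.055, adjusted p from limma = 0.821), the lowest among the 10 enzymes.

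None of the 3 enzymes that reduce or oxidize a wider range of aldehydes passed the threshold over all 8 libraries. AKR1A1 (chromosome 1, 45550826 to 45570049, plus strand), which reduces aldehydes with NADPH, ranged from 86.4 to 93.6 CPM in control and from 90.9 to 92.3 CPM in CML-exposed cells, and its log2 fold change of 0.019 had the narrow interval −0.039 to 0.078. ALDH2 (chromosome 12, 111766933 to 111817532, plus strand) ranged from 48.5 to 53.4 CPM in control and from 50.03 to 54.9 CPM in CML-exposed cells, with a log2 fold change of 0.057 (interval −0.037 to 0.15). With 1 library left out, the fold change of ALDH2 lay between 0.034 and 0.084.
ALDH9A1 (chromosome 1, 165662216 to 165698562, minus strand), a cytosolic enzyme that oxidizes aminoaldehydes, had 112.3, 111.0, 111.2 and 117.6 CPM in control and 116.5, 120.3, 114.8 and 117.0 CPM in CML replicates 1 to 4. As for GLO1, control replicate 4 was the highest control library and overlapped the CML libraries, and the other 3 control libraries lay below all of them. Its log2 fold change was 0.052 (interval −0.0036 to 0.11, adjusted p from limma = 0.686). Without control replicate 4 it was 0.071 with an adjusted p of 0.268, under the threshold, so that SORD, GLO1 and ALDH9A1, 3 of the 10 enzymes, were called in that fit, which called 3.91% of all genes. The value without both libraries of replicate 4 was again 0.071, with an adjusted p of 0.388.

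Over the 10 enzymes, 7 had a log2 fold change above 0 and 3 below, with a median of 0.0152, beside 0.0149 for the 13047 genes averaging 1 CPM or more, of which 58.8% were above 0. The signs of PARK7, AKR1A1 and AKR1B1, all within 0.02 of 0, turned when the libraries were centred on their medians, a scaling that moved all genes by −0.020. Of the 10 values, that of SORD stood at percentile 95.6 and that of FN3KRP at percentile 8.94 of these genes.

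**Figure D4:**
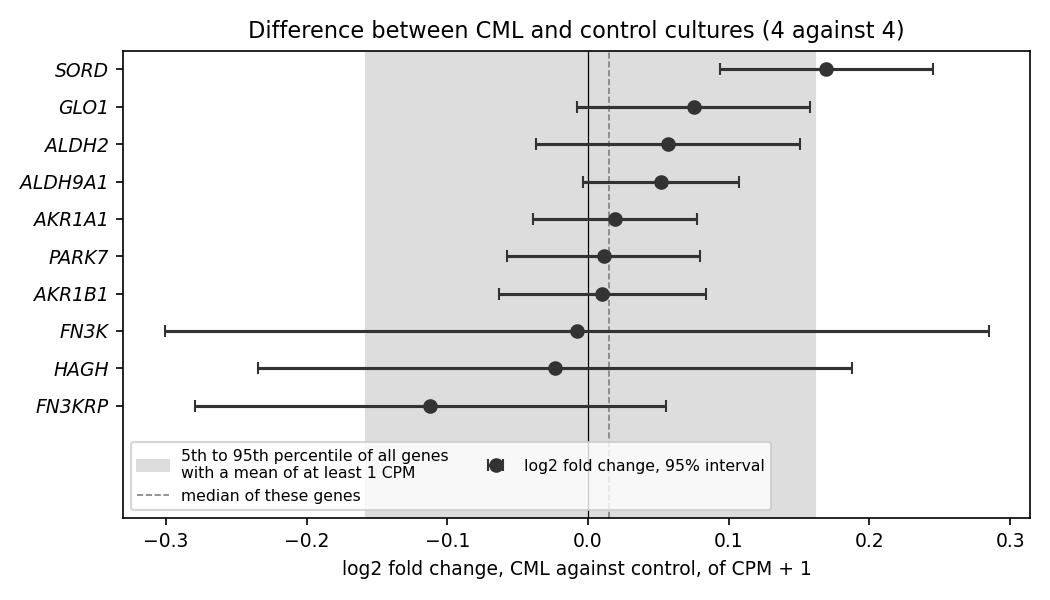
Log2 fold change of CPM + 1 between CML-exposed and control cells (x axis) for the 10 genes (y axis), with 95% intervals from limma, over the range from the 5th to the 95th percentile (−0.158 to 0.161) of all genes averaging 1 CPM or more in grey. The interval of SORD alone lies wholly above 0, and those of FN3K, HAGH and FN3KRP are the widest.

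The genes whose levels followed SORD most closely over the 8 libraries, among 10768 others averaging 5 CPM or more, were BBS9 (Pearson's r = 0.989), HSPB11 (r = 0.963) and CENPQ (r = 0.962). BBS9 is a subunit of the BBSome, which sorts cargo to cilia, HSPB11 a subunit of intraflagellar transport, and CENPQ a centromere protein. These correlations are descriptions over libraries that differ in treatment, and the genes were selected for them. BBS9 had 21.1 CPM in control and 22.6 CPM in CML-exposed cells (adjusted p from limma = 0.441), HSPB11 9.56 and 10.9 CPM (adjusted p = 0.297) and CENPQ 6.99 and 9.05 CPM (adjusted p = 0.186).

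Beyond the 10 enzymes, 88 genes of 6 neighboring functions were listed, of which 74 were analysed and 63 averaged 1 CPM or more. Of the 74 genes limma called 0, against 0.895% of all genes, and 3 higher and 1 lower with CML had an unadjusted p under 0.05, against 4.77% and 2.90% of all genes. In these same 4 genes the groups did not overlap, with CML higher in TPI1, HK2 and SCARA3 (against 2.50% of all genes) and lower in CYP2E1 (against 1.27%).
TPI1, the triose phosphate isomerase that interconverts the triose phosphates from which methylglyoxal forms, had 282.1 ± 7.79 CPM in control and 301.9 ± 10.2 CPM in CML-exposed cells (SD, n = 4 each), and its log2 fold change was 0.098 (adjusted p from limma, 0.488). Without both libraries of replicate 4 it was the 1 of 74 listed genes that was called, in a fit that called 1.82% of all genes. HK2, a hexokinase that phosphorylates glucose on entry, had 169.2 ± 5.70 and 181.6 ± 3.55 CPM, and its log2 fold change was 0.10 (adjusted p from limma, 0.398). It was called without control replicate 4, with ALDH3B1 and KHK called lower, so that 3 of 74 listed genes were called in a fit that called 3.91% of all genes. With the dependence on GC content and length taken out, HK2, TPI1, ALDOA and SLC2A1 were called higher and GGT5 lower, 5 of the 63 listed genes in a fit that called 6.58% of its 12928 genes. The largest fold change of the 4 genes was that of SCARA3, a scavenger receptor, from 1.25 ± 0.278 to 1.87 ± 0.251 CPM (SD, n = 4 each), but it rested on 15 to 36 reads per library. CYP2E1, a cytochrome that can oxidize acetone toward methylglyoxal, went from 1.31 ± 0.0779 to 1.00 ± 0.204 CPM on 14 to 25 reads.

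**Figure D5:**
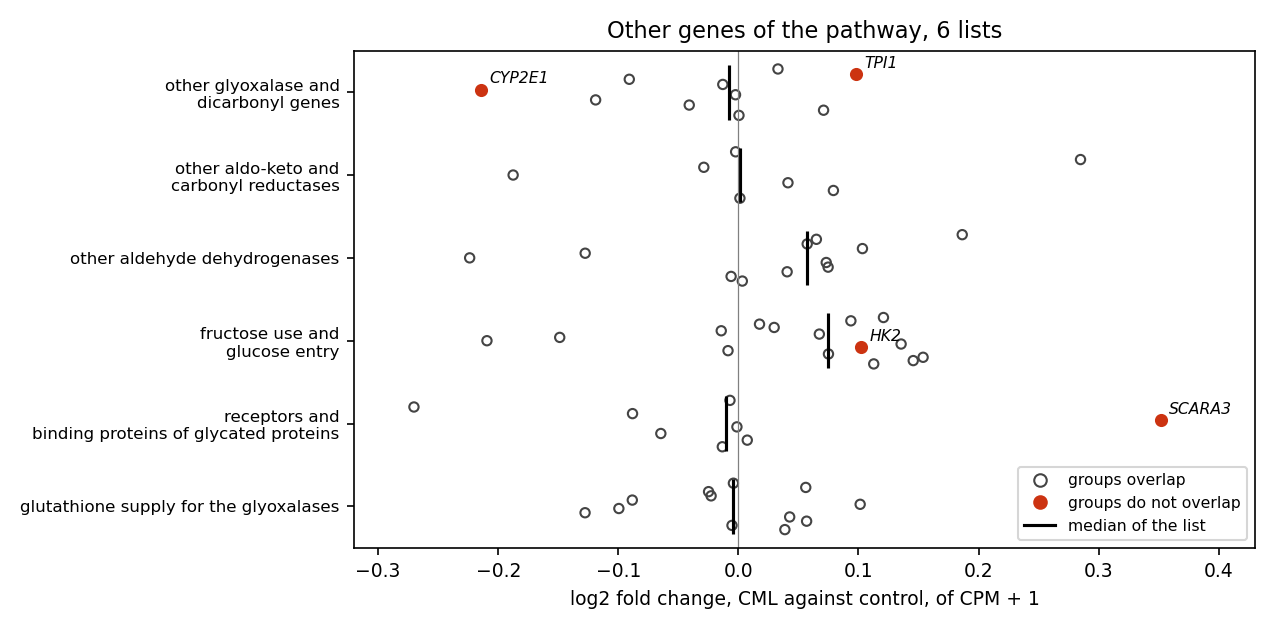
Log2 fold change of CPM + 1 (x axis) for the 63 listed genes averaging 1 CPM or more, by list (y axis); filled red points are genes whose groups do not overlap and black bars are list medians. Fold changes lie on both sides of 0 in each list, and the median is highest for fructose use and glucose entry, at 0.075.

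Among the other glyoxalase and dicarbonyl genes, 10 of 12 were above 1 CPM, 4 of them with a log2 fold change above 0 (against 58.8% of all genes averaging 1 CPM or more), and the median was −0.0077. GLOD4, a relative of GLO1, had 71.1 ± 3.18 and 71.0 ± 2.10 CPM, and HYI, a putative hydroxypyruvate isomerase, 54.9 ± 1.72 and 54.9 ± 3.10 CPM (SD, n = 4 each). LACTB2, a metallo-beta-lactamase relative of HAGH, had 17.5 and 18.4 CPM with overlapping groups.
Of the other aldo-keto and carbonyl reductases, 7 of 14 were above 1 CPM, 4 of them with a log2 fold change above 0 (against the same 58.8%), and the median was 0.0012. Those with the highest CPM were AKR7A2 (30.2 CPM in control, 31.9 CPM with CML), CBR1 (29.9 in both) and CBR4 (22.1 and 21.5 CPM). AKR1C3, at 2.02 ± 0.761 and 2.60 ± 0.276 CPM, and AKR1E2, at 2.30 ± 0.367 and 1.90 ± 0.351 CPM (SD, n = 4 each), had overlapping groups, and AKR1B10, the closest relative of AKR1B1 on the list that was analysed, had a mean of 0.0743 CPM.
Of the other aldehyde dehydrogenases, 11 of 17 were above 1 CPM, 8 of them with a log2 fold change above 0 (against the same 58.8%), and the median was 0.057. ALDH18A1, an enzyme of proline synthesis, had 85.0 ± 2.02 and 88.5 ± 2.34 CPM, ALDH6A1 54.8 ± 2.21 and 57.8 ± 2.74 CPM and ALDH7A1 51.7 ± 4.05 and 55.5 ± 2.68 CPM (SD, n = 4 each), with overlapping groups in all 3. ALDH1A3, a retinaldehyde dehydrogenase used as a marker of stem-like breast cancer cells, had 7.62 ± 0.953 and 8.78 ± 0.681 CPM (adjusted p from limma = 0.729), and ALDH1L1, of folate metabolism, 4.22 ± 0.202 and 3.50 ± 0.587 CPM (adjusted p from limma = 0.653).

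For fructose use and glucose entry, 15 of 20 genes were above 1 CPM and 11 of them had a log2 fold change above 0 (against the same 58.8%), with a median of 0.075 and 0 called. The glucose transporter SLC2A1 had 412.2 ± 16.1 CPM in control and 434.3 ± 17.4 CPM in CML-exposed cells (SD, n = 4 each), the aldolase ALDOA 531.0 and 566.2 CPM and HK1 268.9 and 272.2 CPM, each with overlapping groups. ALDOA had whole reads in 0 of 8 libraries. ALDOC, the brain-type aldolase, had 6.11 and 6.82 CPM. KHK, the kinase that phosphorylates fructose, had a mean of 3.84 CPM and its log2 fold change was −0.21 (adjusted p from limma, 0.859), and the fructose transporter SLC2A5 a mean of 0.514 CPM.
Of the receptors and binding proteins of glycated proteins, 8 of 13 were above 1 CPM, and 2 of these 8 had a log2 fold change above 0 (against the same 58.8%), with a median of −0.010. The receptor RAGE (AGER) had 2.69 ± 0.617 CPM in control and 2.03 ± 0.0770 CPM in CML-exposed cells (SD, n = 4 each), with overlapping groups (adjusted p from limma = 0.683). It rested on 32 to 55 reads per library, for which counting alone gives an SD of 0.373 CPM. The groups overlapped too for DDOST, PRKCSH, LGALS3 and MERTK. DDOST, a subunit of the oligosaccharyltransferase also known as AGE receptor 1, had 535.1 ± 9.62 and 530.1 ± 7.57 CPM, PRKCSH, the beta subunit of glucosidase II, 289.2 ± 21.7 and 288.6 ± 15.6 CPM, and LGALS3, galectin-3, 129.9 ± 7.25 and 130.5 ± 5.31 CPM (SD, n = 4 each). MERTK, a receptor kinase for apoptotic cells, had 64.3 and 60.4 CPM, and the scavenger receptors MSR1 and CD36 were at means of 0.0367 and 0.0364 CPM, which is less than the value of 1 read.
Glutathione is the cofactor that GLO1 uses. All 12 genes listed for its supply, which include genes of its breakdown such as CHAC2, were above 1 CPM with 0 called. Of their log2 fold changes, 5 of 12 were above 0 (against the same 58.8%), with a median of −0.0048. GSS, glutathione synthetase, had 105.3 ± 4.29 and 109.5 ± 2.82 CPM, and the cystine transporter subunits SLC3A2 and SLC7A11 had 846.9 ± 47.7 and 831.8 ± 29.4 CPM, and 229.5 ± 13.6 and 228.4 ± 8.94 CPM (SD, n = 4 each). GGT5, of the gamma-glutamyltransferase family, had 73.1 and 68.1 CPM, and CHAC2, which degrades glutathione, 5.52 and 4.98 CPM, both with overlapping groups.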

How the data were processed

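RNA-Seq was performed on 4 control and 4 CML-exposed cultures. The authors deposited CPM values, 1 column per library. For tumors, the methods say that the authors made TMM-scaled CPM with edgeR after a filter on low values and alignment to hg19. The methods also name TMM-scaled CPM for the enrichment analysis of tumors, xenografts and cell lines. For the present libraries, the processing notes deposited by the submitters name edgeR and hg38, and 2966 of the 17681 rows reached 0.5 CPM in at most 1 library. The aligner and the counter are not given in the sources used here. The columns summed to between 986730 and 1014124, and between 85.1% and 86.1% of values above 0 were whole reads (within 0.02 of a read), so no count test was run. SDs of counting cover counting error only.

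Rows with the same symbol were averaged (32 symbols had more than 1). R 4.3.3 and limma 3.58.1 were used to test log2(CPM + 1), with a variance trend and no covariates. Exact permutation tests were 2-sided. Coordinates are RefSeq's on GRCh38.p14. Transcript lengths, GC content and sequences come from GENCODE 44 on GRCh37. Members and lists were chosen with earlier results of these data known. Genes were named by rule: all members, their overlapping genes and pseudogenes, any called list gene, the 3 per list with the smallest p and the 3 with the highest CPM, the 3 genes most like a called member, and AGER. SLC2A6, KHK, ALDH3B1, AKR1B10, SLC2A5, MSR1 and CD36 were named after their values were seen. Alternatives were the replicate block, another pseudocount, a filter, other scalings, no trend, removal of GC and length effects, and each library left out. Code was tested on simulated data.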

Additional observations from a re-analysis of the deposited data

Results flagged for a closer look

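Within groups of 4 libraries, a single library far from the other 3 was looked for by Dixon's criterion at the 95% level, and 5 of the 86 groups had one, close to the 4.3 that chance gives. Among the 10 enzymes it was AKR1B1 in control replicate 2, with 76.9 CPM against 81.2 to 82 CPM in the other control libraries. FAHD1, which overlaps HAGH, had 17.5 CPM in CML replicate 4 and 14.6 to 15.1 CPM in the other CML libraries. ALDH18A1 had 81.9 CPM in control replicate 2 (others 85.9 to 86.1), ALDH6A1 had 51.5 CPM in control replicate 1 (others 55.6 to 56.4), and GGT5 had 62 CPM in CML replicate 4 (others 69.4 to 70.6).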

How the results depend on the processing

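The number of genes called was 158 of 17649 and became 73 after centring of the libraries, 321 without control replicate 4 and CML replicate 4 (a setting chosen after seeing the data), and between 20 (without CML replicate 2) and 690 (without control replicate 4) with 1 library left out. Removal of GC and length effects was fitted on only 12928 genes, those averaging 1 CPM or more with a known length, and called 851 of them (864 with the replicate block), where the filter at 1 CPM without that removal called 141 of 13047. The number was 189 with the replicate block alone, in which SORD had an adjusted p of 0.252. Same-numbered libraries had correlations of their deviations between −0.0645 and 0.334, with CML replicates 1 and 4 but not 2 and 3 correlating best with their own number, so pairing by number was not established, and whether numbers mark a shared day is not given in the sources used here. The block changed the call of 0 of the 10 enzymes. Of these, 1 was called, and 0 were after a filter at a mean of 1 CPM (SORD, adjusted p = 0.402), after centring (0.394), or without both libraries of replicate 4, and between 0 and 3 with 1 library left out. Of the 74 listed genes 0 were called. Of the 63 in the fit with GC and length effects removed, 5 were called (ALDOA, GGT5, HK2, SLC2A1 and TPI1, where 6.58% of all genes in it were), and 7 when the block was added (also MERTK and SLC2A6, 6.68%). Of the 74, 1 was called without both libraries of replicate 4, and between 0 and 3 were with 1 library left out. The cause of these shifts was not tested. The log2 fold change of SORD kept its sign in all 18 alternatives (0.15 to 0.19), as did those of GLO1, FN3KRP, ALDH2 and ALDH9A1. Values near 0 turned sign: PARK7 to −0.0084 with centring and −0.012 with quantile normalization, AKR1B1 to −0.0095 and −0.0082, AKR1A1 to −0.00045 with centring, and FN3K to 0.086 without both libraries of replicate 4. With 1 library left out, HAGH lay between −0.086 and 0.030, FN3K between −0.084 and 0.088, AKR1A1 between −0.0031 and 0.035, and AKR1B1 between −0.011 and 0.034. Counting error limits FN3K and the listed genes near 1 CPM, and for SORD it exceeds the spread between libraries on which its p rests.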
